A study of Mus musculus and Homo sapiens with 20 samples.

Results

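Collagen genes encode the chains of the collagen triple helix, and the marking of their starts and bodies by 2 Polycomb histone marks is described here. Members were chosen by name: protein-coding genes on autosomes whose GENCODE symbol is Col, a number, a and a number on mm10, or the same in upper case on hg38. This gave 42 of 20807 autosomal protein-coding genes in mouse and 42 of 19111 in human, with no use of the peak lists. The X-linked pair Col4a5 and Col4a6 fell outside the rule in both species. All 42 genes enter every count below, and no filter on low values was applied.

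Fibrillar collagens such as types I, II, III and V form the tensile fibrils of bone, cartilage and skin, and type IV chains build the network of basement membranes. Type VI chains form beaded filaments, FACIT collagens sit on the surface of fibrils, and a few collagens span the plasma membrane. Most collagen genes are transcribed in mesenchymal, epithelial or chondrocyte lineages rather than in pluripotent or blood cells, and developmental genes that are silent in a lineage are typical targets of Polycomb. Polycomb repressive complex 1 places H2AK119ub, a single ubiquitin on a lysine in the tail of histone H2A, and Polycomb repressive complex 2 places H3K27me3, a trimethylated lysine of histone H3.

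CUT&Tag, in which an antibody directs a transposase to a chromatin mark, gave 1 peak list for each of 20 libraries in 10 groups of 2. Mouse embryonic stem (mES) cells that were Tet2 wild type (WT) or Tet2 knockout (KO) were grown in serum with LIF, 3 µM CHIR99021 and 1 µM PD0325901, and both marks were profiled. Haematopoietic stem and progenitor cells (HSPCs) were lineage-depleted bone marrow cells selected with c-Kit magnetic beads from WT or Tet2 KO C57BL/6 mice of 6 to 8 weeks, and both marks were again profiled. K562, a human leukaemia line, received siControl or siMBD6 (an siRNA against the methyl-CpG-binding-domain protein MBD6) by nucleofection, and only H2AK119ub was profiled. The labels list 1 µg/mL puromycin in the K562 medium, which the methods give only for shRNA lines. The Tet2 KO mice carry the deletion in all tissues, and the HSPC selection is a mixture of stem cells and progenitors. The questions put to the data were whether the marks sat elsewhere once Tet2 was lost, or MBD6 was depleted. The methods speak of biological replicates, but no source used here says whether the 2 libraries of a group came from separate cultures or animals, so p-values measure the spread between these libraries, which may be technical.

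The lists held 85121 to 167378 peaks and covered 130.8 to 258.8 Mb of the autosomes. They give positions without read counts, so depth per library is unknown and the length of a list may depend on it. Replicate lists shared only 16 to 69 identical peaks and were counted as separate samples. Starts of pluripotency genes served to check the cell types. Of 6 listed (Pou5f1, Sox2, Nanog, Esrrb, Zfp42 and Tdgf1), 1 had H3K27me3 at the start in both WT mES libraries and 5 in both WT HSPC libraries. The one in mES cells was Esrrb, at 85.1% and 100% there and 100% in HSPCs, and Zfp42 had none in HSPCs but 25.04% in WT mES replicate 1. For H2AK119ub the counts ran the other way. It marked all 6 in both WT mES libraries and 2, Pou5f1 and Sox2, in both WT HSPC libraries. Of 6 blood markers, 4 had H3K27me3 at the start in both WT HSPC libraries, so the lists show marking and not expression. Of 6 stromal markers, 4 were marked in both WT libraries for each mark in each mouse cell type.

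To show what the starts look like, RefSeq promoters (250 bp before to 50 bp after the start, GRCm38.p6) are printed for 5 members with CG dinucleotides in capitals, each read 5′ to 3′ on its own strand. Of the 42 mouse members, 33 matched the promoter table by symbol. Col5a1 (chr2:27886175-27886474, plus strand, 34 CG) was covered by whichever mark was profiled in all 16 mouse libraries. Col1a2 (chr6:4505368-4505667, plus strand, 13 CG) and Col4a4 (chr1:82586800-82587099, minus strand, 14 CG) carried both marks in WT mES cells and only H3K27me3 in WT HSPCs. The RefSeq start of the printed Col1a2 promoter lies 804 bp from the annotated start used for its coverage values, and that of Col17a1 52 bp. Col17a1 (chr19:47691993-47692292, minus strand, 5 CG) carried both in WT mES cells and neither in both WT HSPC libraries, and Col3a1 (chr1:45311288-45311587, plus strand, 0 CG) carried neither mark in any mES library. Col5a1, Col4a4 and Col17a1 were picked for printing after their values were seen.
Col5a1: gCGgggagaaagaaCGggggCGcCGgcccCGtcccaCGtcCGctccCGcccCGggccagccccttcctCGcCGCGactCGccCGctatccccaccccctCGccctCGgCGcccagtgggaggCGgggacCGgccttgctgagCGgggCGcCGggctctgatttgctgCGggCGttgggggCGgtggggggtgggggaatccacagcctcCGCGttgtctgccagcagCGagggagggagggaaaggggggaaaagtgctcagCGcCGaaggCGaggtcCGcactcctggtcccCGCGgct
Col1a2: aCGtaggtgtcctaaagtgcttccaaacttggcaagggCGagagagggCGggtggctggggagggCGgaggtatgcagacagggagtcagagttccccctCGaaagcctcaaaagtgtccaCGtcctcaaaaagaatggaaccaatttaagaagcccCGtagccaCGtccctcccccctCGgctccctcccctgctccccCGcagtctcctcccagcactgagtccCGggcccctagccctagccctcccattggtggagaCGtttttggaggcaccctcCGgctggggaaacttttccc
Col4a4: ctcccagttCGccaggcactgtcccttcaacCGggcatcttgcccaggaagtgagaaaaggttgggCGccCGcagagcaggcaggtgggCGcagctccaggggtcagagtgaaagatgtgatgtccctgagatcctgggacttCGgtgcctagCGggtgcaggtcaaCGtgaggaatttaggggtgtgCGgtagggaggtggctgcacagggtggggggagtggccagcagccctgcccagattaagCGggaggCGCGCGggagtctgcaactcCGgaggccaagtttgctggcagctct
Col17a1: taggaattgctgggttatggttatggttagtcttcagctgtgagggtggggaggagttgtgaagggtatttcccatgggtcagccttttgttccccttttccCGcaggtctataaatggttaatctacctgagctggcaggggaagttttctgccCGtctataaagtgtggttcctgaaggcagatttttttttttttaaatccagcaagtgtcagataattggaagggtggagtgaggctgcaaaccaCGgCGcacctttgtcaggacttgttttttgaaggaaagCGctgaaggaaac
Col3a1: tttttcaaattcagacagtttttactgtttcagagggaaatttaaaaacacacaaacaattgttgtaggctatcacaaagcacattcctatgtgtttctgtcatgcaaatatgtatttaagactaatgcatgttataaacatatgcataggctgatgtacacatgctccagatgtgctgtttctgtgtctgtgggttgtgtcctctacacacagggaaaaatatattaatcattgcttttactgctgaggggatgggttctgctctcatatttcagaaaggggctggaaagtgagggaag

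The letters CG occurred in 30 of the 33 matched promoters and in 94.6% of all 32851 promoters in the table, where the median was 7 per promoter. GGGCGG, the core of an Sp1 motif, was found on either strand in 20 of the 33 and in 35.7% of all promoters, and each GGGCGG also holds a CG. TATAAA was found in 5 of the 33 and in 13.6% of all, and CCAAT in 11 of the 33 and in 37.4%. Among the 5 printed promoters, Col17a1 and Col3a1 hold TATAAA. These matches describe letters in the window and not bound factors.

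The measure used for starts is the percent of the 2001 bp around the annotated start, 1 kb on each side, that lies under a peak. A start was called marked in a group when a peak touched this window by at least 1 bp in both libraries. The narrowest common peak of 0.501 kb fills 25.04% of the window, a value that recurs below. Start windows of Col4a1 and Col4a2, whose starts lie 21 bp apart on opposite strands, overlap almost wholly, as do those of Col4a3 and Col4a4 at 72 bp, so each pair shares its values.

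In WT mES cells most collagen starts carried both marks. H2AK119ub marked 35 of 42 (83.3%, against 65.6% of all genes), H3K27me3 marked 34 (81.0%, against 45.7%), and 33 carried both (78.6%, against 42.7%). In WT HSPCs H3K27me3 marked 35 of 42 (83.3%, against 56.0%), whereas H2AK119ub marked 23 (54.8%, against 63.1%). All 23 also had H3K27me3, 12 had H3K27me3 without H2AK119ub (28.6%, against 8.11% of all genes), and 0 had H2AK119ub alone (0%, against 15.2%). In KO mES cells H2AK119ub marked 35 (against 65.9% of all genes) and H3K27me3 36 (85.7%, against 35.8%), and in KO HSPCs they marked 26 (61.9%, against 69.4%) and 35 (against 56.6%). The median start was covered over 90.9% by H2AK119ub and 100% by H3K27me3 in WT mES cells, and over 29.3% and 100% in WT HSPCs. The medians of all genes were 41.0% and 12.5% in mES cells and 45.5% and 30.5% in HSPCs. These are descriptions of the list beside all genes, with no test.

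**Figure D1:**
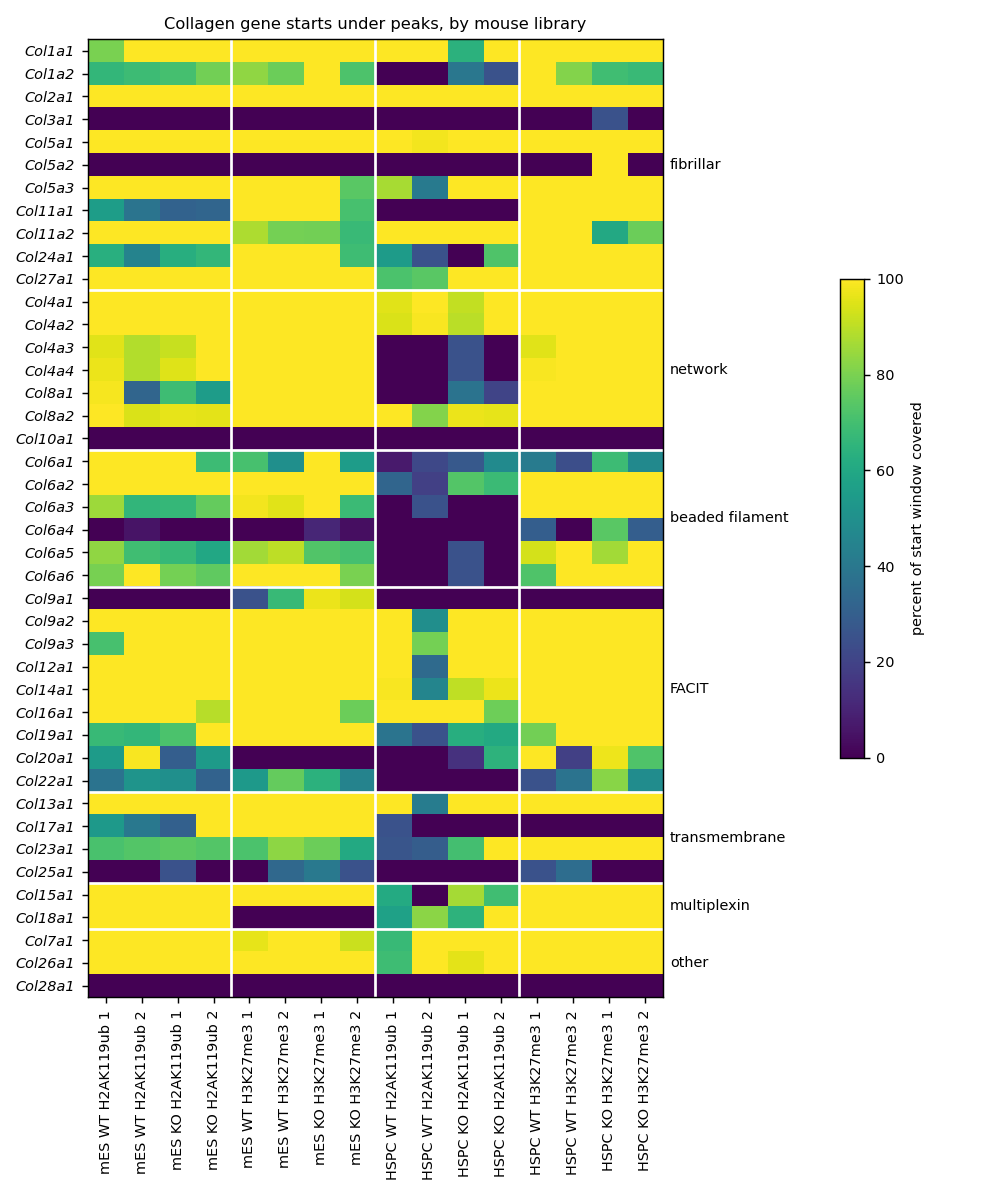
Percent of the 2001-bp start window under peaks for the 42 mouse collagen genes, in rows grouped by class, in each of the 16 mouse libraries, in columns grouped by cell type and mark. The HSPC H2AK119ub columns hold the most uncovered starts, whereas Col2a1 is at 100% in all 16 libraries and Col10a1 and Col28a1 are at 0% in all 16.

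Fibrillar genes spanned the whole range. Col2a1, the chain of cartilage type II collagen (ENSMUSG00000022483.17; mm10 chromosome 15, 97975602 to 98004695, minus strand), was covered over 100% of its start in every mouse library for both marks. Col1a1, a chain of type I collagen of bone and skin, was at 79.9% and 100% for H2AK119ub in WT mES cells, 100% in both WT HSPC libraries and 100% for H3K27me3 in all 8 libraries. Its partner Col1a2 was at 66.2% and 68.4% for H2AK119ub in WT mES cells and at 0% in both WT HSPC libraries, and at 100% and 81.6% for H3K27me3 in the same HSPCs. The 2 chains of the same fibril therefore differed in H2AK119ub in HSPCs while both kept H3K27me3. Col3a1, of the type III collagen of vessels and skin, and its neighbour Col5a2, whose start lies 191744 bp away on the opposite strand, had no peak of either mark at the start in 15 of 16 mouse libraries. The exception was KO HSPC H3K27me3 replicate 1, at 25.04% for Col3a1 and 100% for Col5a2, with 0% for both in replicate 2.

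The basement membrane genes split by chain pair. Col4a1 and Col4a2, the ubiquitous type IV chains, were between 89.8% and 100% covered at the start in all 16 libraries. Col4a3 and Col4a4, the chains of kidney, lung and inner ear basement membranes, were between 88.4% and 100% for H2AK119ub in mES cells, and at 0% in 3 and 25.04% in 1 of the 4 HSPC libraries, while H3K27me3 stayed between 95.6% and 100%. Col8a1 was at 98.8% and 32.6% for H2AK119ub in WT mES cells and 0% in both WT HSPC libraries, whereas Col8a2, the other type VIII chain, was at 100% and 81.3% in those HSPCs. Col10a1, a hypertrophic cartilage gene, had no peak at the start in any library.

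Of the beaded-filament genes, 5 of 6 were marked by each mark in WT mES cells, and in WT HSPCs 5 had H3K27me3 and 2 had H2AK119ub. Those 2 were Col6a1, at 7.40% and 21.6%, and Col6a2, at 32.6% and 18.9%, against 100% for both genes in both WT mES libraries. Of the FACIT genes, Col9a1 stood apart: it had no H2AK119ub in any mouse library, and H3K27me3 covered 25.04% and 67.5% of its start in WT mES cells and 0% in all 4 HSPC libraries. Col9a2 and Col9a3, which form the same trimer, were marked by both marks in both cell types. Col17a1, the transmembrane collagen of epithelial hemidesmosomes, was at 100% for H3K27me3 in all 4 mES libraries and 0% in all 4 HSPC libraries.

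Away from the start, too, collagen genes in mES cells had more sequence under peaks than genes at large. In 500-bp bins, WT mES H2AK119ub covered on average 72.4% of collagen sequence within 1 kb of the start and 43.2% from 5 to 10 kb downstream, against 44.01% and 21.04% for all genes. H3K27me3 in WT mES cells covered 76.5% and 42.7%, against 33.3% and 15.7%. In WT HSPCs H2AK119ub covered 41.2% and 20.3%, close to the 44.4% and 20.04% of all genes, while H3K27me3 covered 76.9% and 35.9%, against 38.6% and 14.6%. In siControl K562 H2AK119ub covered 27.2% and 25.04%, against 16.0% and 12.6%, so there the body held nearly as much as the start.

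**Figure D2:**
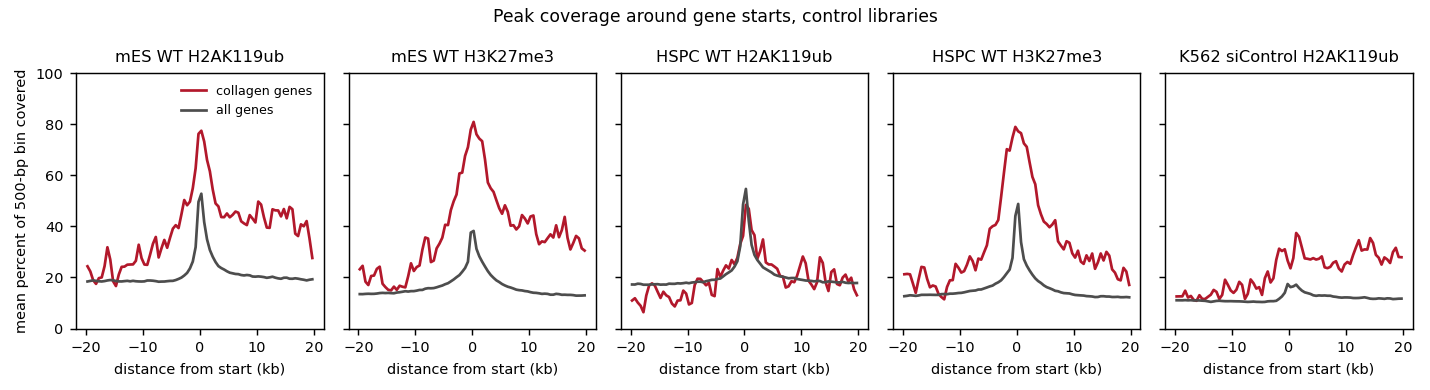
Mean percent of each 500-bp bin under peaks, averaged over the 2 control libraries of a group, from 20 kb upstream to 20 kb downstream of the start in the direction of transcription, for collagen genes (red) and all autosomal protein-coding genes (grey). The red line lies above the grey one around the start in every panel but WT HSPC H2AK119ub, where 41.2% of collagen sequence and 44.4% of all sequence within 1 kb was covered.

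Starts were next divided by CpG content, which the choice of members did not use. A start was called CpG-rich when the 500 bp on each side had an observed-to-expected CpG ratio of at least 0.6 and at least 50% G and C, which held for 11 of 42 mouse collagen genes and 9511 of all genes. These 11 were Col2a1, Col5a1, Col27a1, Col4a1, Col4a2, Col8a2, Col12a1, Col13a1, Col23a1, Col15a1 and Col26a1. In WT HSPCs, H2AK119ub marked 10 of the 11 CpG-rich collagen starts (90.9%, against 90.2% of all CpG-rich starts) and 13 of the 31 others (41.9%, against 40.2%). Within each class, then, collagen starts were marked by H2AK119ub in HSPCs about as often as all genes were. H3K27me3 in the same cells marked 11 of 11 (100%, against 78.3%) and 24 of 31 (77.4%, against 37.2%). In WT mES cells the CpG-poor collagen starts were marked more often than CpG-poor genes at large, at 77.4% against 51.7% for H2AK119ub and 74.2% against 40.6% for H3K27me3.

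The CpG-rich member without H2AK119ub in both WT HSPC libraries was Col15a1, a basement membrane zone collagen, at 61.3% in replicate 1 and 0% in replicate 2. The 6 members with neither mark in WT mES cells had 3.00 to 22.0 CpG per kb, with a median of 11.99, against a median of 39.0 for the 33 with both. Col28a1 had the fewest, 3.00 per kb, and no peak at its start in any library. Col25a1, a neuronal transmembrane collagen and 1 of these 6, has its principal transcript start 49390 bp downstream, and there H3K27me3 covered 100% in all 8 mouse libraries. H2AK119ub covered 100% and 80.6% of that window in WT mES cells and 78.5% and 15.7% in WT HSPCs. Its place among the 6 thus depends on the start chosen. The choice of start also sets the values of Col18a1, the endostatin precursor: its H2AK119ub-covered first start lies 52843 bp from its principal start, where no H3K27me3 peak was called in any mouse library.

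**Figure D3:**
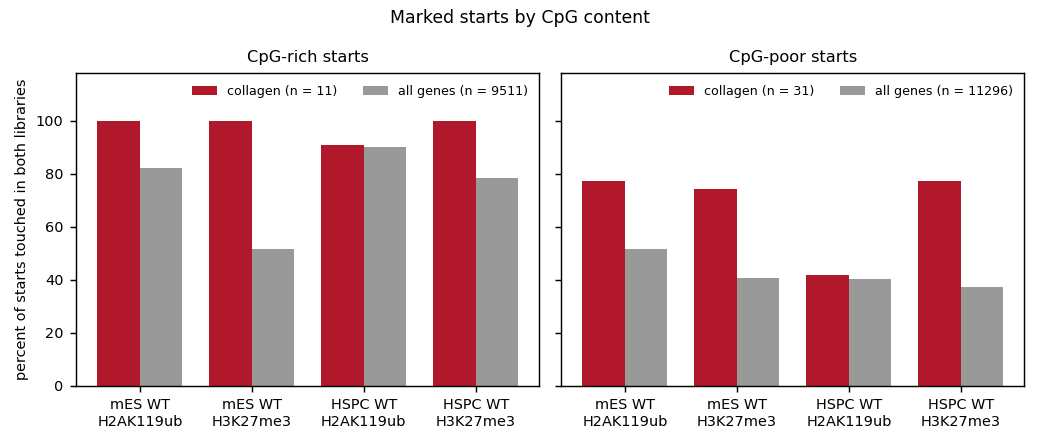
Percent of starts touched by a peak in both WT libraries of a group, for CpG-rich starts (left) and all other starts (right), with collagen genes in red and all autosomal protein-coding genes in grey. For HSPC H2AK119ub the red and grey bars stand at 90.9% and 90.2% (CpG-rich) and at 41.9% and 40.2% (CpG-poor), whereas for the other marks and cells the red bars are the higher.

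Coverage of the whole gene, from the first to the last annotated base, ranked the members differently from the start. In WT mES cells H2AK119ub covered 99.3% ± 1.05 of Col2a1, 96.2% ± 1.21 of Col6a1, 94.2% ± 1.63 of Col16a1, 93.4% ± 0.505 of Col1a1, 92.9% ± 2.11 of Col7a1 and 89.3% ± 1.03 of Col4a2 (SD, n = 2 each). At the other end were Col3a1 and Col5a2 at 0%, Col11a1 at 0.247%, Col28a1 at 1.27%, Col24a1 at 1.96% and Col8a1 at 2.24%. Col11a1 thus had H2AK119ub over 55.6% and 38.4% of its start and almost none in its body. For H3K27me3 in WT mES cells the 6 highest were Col16a1 (98.9% ± 1.55), Col11a2 (89.0% ± 5.29), Col1a1 (87.9% ± 4.78), Col9a3 (87.8% ± 3.10), Col7a1 (85.7% ± 8.84) and Col4a2 (85.0% ± 6.56), and Col10a1, Col18a1, Col3a1 and Col5a2 were at 0%, with Col11a1 at 1.25% and Col28a1 at 2.42%.

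In WT HSPCs the highest for H2AK119ub were Col11a2 (81.5% ± 5.73), Col1a1 (80.8% ± 3.59), Col8a2 (76.2% ± 4.02), Col2a1 (73.1% ± 16.3), Col16a1 (71.4% ± 6.73) and Col7a1 (60.7% ± 1.74), and Col4a3, Col4a4, Col5a2, Col6a5, Col8a1 and Col9a1 were among those at 0% in both libraries. For H3K27me3 they were Col1a1 (88.8% ± 2.13), Col20a1 (86.7% ± 2.41), Col8a2 (84.9% ± 2.59), Col2a1 (81.5% ± 0.751), Col5a3 (75.2% ± 6.20) and Col9a3 (75.1% ± 3.68). At the low end Col10a1, Col3a1 and Col5a2 were at 0%, Col28a1 at 0.129%, Col22a1 at 0.138% and Col17a1 at 0.548%. The peaks over the starts themselves were widest at Col2a1 for H2AK119ub in mES cells, 41.2 kb in WT replicate 1, and at Col16a1 for H3K27me3 in WT mES replicate 2, at 76.2 kb against 28.7 kb in replicate 1. Their median width over members with the start base under a peak in both libraries was 5.51 kb for H2AK119ub and 8.91 kb for H3K27me3 in WT mES cells, and 2.98 kb and 8.06 kb in WT HSPCs.

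For each comparison a gene was called when all libraries of one side lay above all of the other and the group means differed by at least 10 percentage points, in the start window and, separately, over the span. The shares of all genes called by the same rule are given beside each count. Comparisons between cell types or marks set 4 libraries, both Tet2 genotypes together, against 4. Their two-sided exact permutation test over 70 assignments cannot give a p below 0.0286, and after Benjamini-Hochberg adjustment over all genes the smallest value was 0.0503 to 0.114, so no gene passed 0.05. Comparisons of 2 libraries against 2 cannot go below p = 0.333 in the exact permutation test, with adjusted values of 0.908 to 1. Calls below are therefore descriptions of separation between libraries. A start whose reference mean is above 90% cannot be called higher, and one whose mean is under 10% cannot be called lower, so the number of collagen starts with room for a call is given where it bears on a count.

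H2AK119ub at collagen starts was lower in HSPCs than in mES cells. Of 42 starts, 14 were lower in all 4 HSPC than in all 4 mES libraries (8.8% of all genes), and 0 were higher (16.0% of all genes). Over spans, 21 were lower (14.9% of all genes) and 0 higher (12.0%). Each called start had p = 0.0286 in the exact permutation test, the smallest possible, with an adjusted p of 0.114. The median difference over members was -15.4 percentage points, against 0 for all genes. The share of collagen starts and spans called lower was thus above that of all genes. Only 19 of the 42 starts left room for a higher call (mean in mES cells of at most 90%), and of all genes with such room 19.3% were called higher. Room for a lower call was left at 35 collagen starts, and 12.3% of all genes with it were called lower. Over spans such room was not counted, so the span shares are not set against genes with equal room. In WT mES cells H2AK119ub covered 45.8% of the median collagen span and 8.49% of the median span of all genes. The part of this difference in the span counts was not tested.

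Among the 14 called starts, 7 of the 10 with the largest differences were in type IV or type VI genes. Col4a4 was at 95.2% ± 4.97 in mES cells and 6.26% ± 12.5 in HSPCs (SD, n = 4 each), and Col4a3 at 93.9% ± 5.00 and 6.26% ± 12.5. Type VI genes followed, with Col6a6 at 83.6% ± 11.1 and 6.26% ± 12.5, Col6a3 at 73.5% ± 9.23 and 6.26% ± 12.5, Col6a1 at 92.1% ± 15.8 and 26.2% ± 16.7, Col6a5 at 69.9% ± 9.75 and 6.26% ± 12.5, and Col6a2 at 100% and 48.3% ± 26.7. The mean of 6.26% stands for 1 library with 1 narrow peak and 3 at 0%. Col1a2 was at 71.0% ± 5.50 and 16.1% ± 19.6, Col17a1 at 56.1% ± 30.8 and 6.26% ± 12.5, and Col15a1 at 100% and 54.3% ± 37.7. Col22a1, Col11a1, Col19a1 and Col14a1 were the other 4. Col8a1 differed by as much, at 64.0% ± 27.7 and 14.7% ± 18.4, but its libraries overlapped and it was not called.

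Over spans the largest differences were again in type VI and type IV genes. Col6a1 was covered over 94.0% ± 2.89 in mES cells and 22.0% ± 12.5 in HSPCs, Col6a2 over 69.5% ± 3.42 and 14.4% ± 4.08, Col4a2 over 88.8% ± 0.795 and 35.0% ± 5.62, and Col4a1 over 78.3% ± 1.84 and 24.8% ± 3.38 (SD, n = 4 each). Col11a2, a fibrillar chain of cartilage, was the counter-example, which stayed between 79.5% and 87.7% in mES libraries and between 77.4% and 85.5% in HSPC libraries, with overlapping groups. The HSPC H2AK119ub lists were shorter, at 138.4 to 174.3 Mb against 234.1 to 258.8 Mb. Lists cut to equal peak number gave the same counts of 14 lower and 0 higher, beside 8.27% and 16.6% of all genes. That cut evens the number of peaks and not the covered length, so the part of the length difference was not tested. Without WT HSPC replicate 2, the shortest list, 13 were lower and 0 higher, and the median difference was -7.30 points. Cell type, strain and culture cannot be told apart in this comparison.

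H3K27me3 behaved otherwise at starts. Of 42, 3 were higher in all 4 HSPC libraries (23.5% of all genes) and 2 lower (9.01%). The higher ones were Col18a1, at 0% in all 4 mES and 100% in all 4 HSPC libraries, Col20a1, a FACIT gene, at 0% and 72.3% ± 37.6, and Col23a1, a transmembrane gene, at 73.3% ± 9.66 and 100% (SD, n = 4). The lower ones were Col17a1, at 100% and 0%, and Col9a1, at 70.7% ± 33.2 and 0%. A higher call was possible at only 15 of the 42 collagen starts, the other 27 having a mean above 90% in mES cells (16.9% of all genes), and of all genes with room 28.3% were called higher. Each had an exact p of 0.0286 and an adjusted p of 0.0874.

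In gene bodies H3K27me3 was distributed quite differently in mES cells and HSPCs. Over spans 7 genes were higher in HSPCs (12.2% of all genes) and 12 lower (12.5%), with an adjusted p of 0.0617. The largest decline from mES cells to HSPCs was at Col11a2, from 88.7% ± 3.25 to 11.3% ± 2.49, followed by Col4a2, from 82.1% ± 7.70 to 7.53% ± 2.84, Col4a1, from 69.3% ± 8.60 to 6.42% ± 1.62, Col15a1, from 61.6% ± 11.6 to 9.10% ± 0.626, Col16a1, from 92.5% ± 9.06 to 49.8% ± 8.89, and Col17a1, from 38.5% ± 5.63 to 0.548% ± 0.632 (SD, n = 4 each). The starts of Col4a1 and Col4a2 stayed at 100% in all 8 libraries, so the difference lay in the body. The largest in the other direction were Col9a2, from 13.1% ± 4.55 to 65.5% ± 9.54, Col20a1, from 43.1% ± 10.5 to 89.7% ± 3.88, Col24a1, from 3.80% ± 0.850 to 45.6% ± 7.48, and Col5a1, from 14.3% ± 9.96 to 51.8% ± 11.1. The autosomal length under H3K27me3 was 147.8 to 229.6 Mb in mES libraries, against 163.2 to 176.6 Mb in HSPC libraries.

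**Figure D4:**
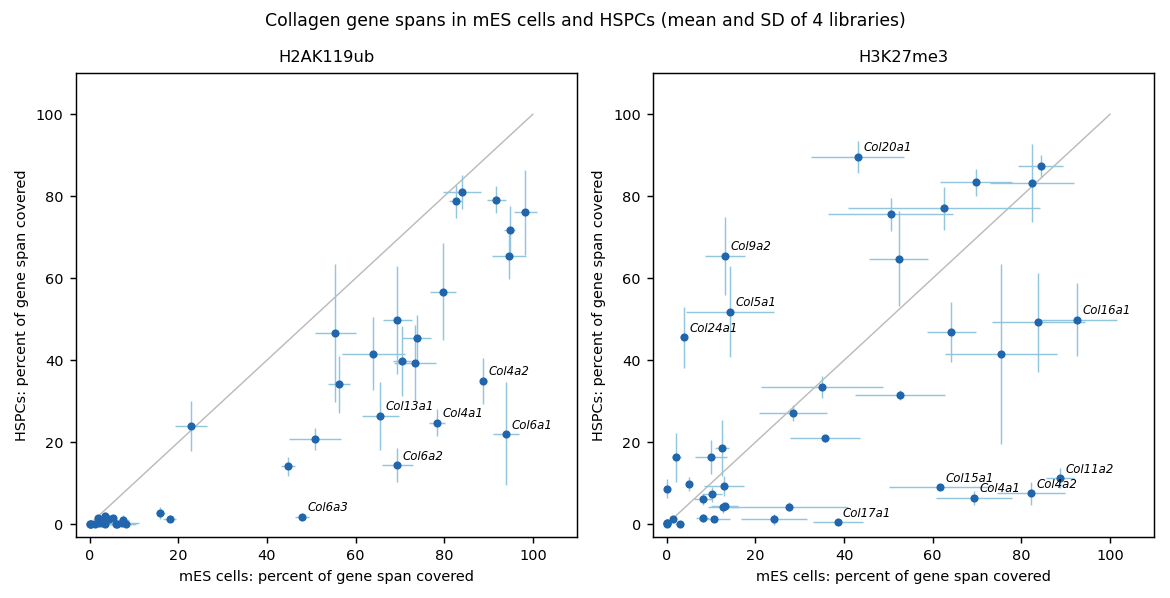
Percent of each collagen gene's span under H2AK119ub (left) and H3K27me3 (right) peaks in mES cells (horizontal axis) and HSPCs (vertical axis), as the mean of 4 libraries with the SD as bars and a grey line where both are equal; genes at least 35 percentage points apart are named. For H2AK119ub the named genes all lie below the line, such as Col6a1 at 94.0% and 22.0%, whereas for H3K27me3 they lie on both sides, such as Col11a2 at 88.7% and 11.3% and Col9a2 at 13.1% and 65.5%.

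The 2 marks were compared within each cell type on the same libraries as above. In mES cells H2AK119ub exceeded H3K27me3 at 3 collagen starts (27.5% of all genes), Col18a1, Col20a1 and Col11a2, and was below it at 4 (5.29%), Col9a1, Col11a1, Col8a1 and Col24a1 (exact p = 0.0286, adjusted p = 0.0860 for each). H3K27me3 left room for a higher H2AK119ub at 15 of the 42, and of all genes with that room 33.1% were called. Col18a1 was at 100% for H2AK119ub and 0% for H3K27me3 in all 4 libraries of each, Col20a1 at 59.6% ± 28.7 and 0%, and Col11a2 at 100% and 78.3% ± 8.17. Col9a1 had the reverse, at 0% for H2AK119ub and 70.7% ± 33.2 for H3K27me3. Col11a1 was at 39.5% ± 11.1 and 92.7% ± 14.6, Col8a1 at 64.0% ± 27.7 and 100%, and Col24a1 at 59.2% ± 9.87 and 92.2% ± 15.5 (SD, n = 4). Over spans it was higher at 12 (25.2% of all genes) and lower at 4 (3.97%). The largest of the 12 was Col5a1, at 63.9% ± 7.10 for H2AK119ub and 14.3% ± 9.96 for H3K27me3, and the largest of the 4 was Col1a2, at 7.59% ± 1.22 and 27.5% ± 13.3.

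In HSPCs H2AK119ub exceeded H3K27me3 at 0 collagen starts (25.4% of all genes) and was below it at 14 (9.93%), with exact p = 0.0286 and adjusted p = 0.0806 for each, where a lower call was possible at 37 members and 15.4% of all genes with that room were called lower. H3K27me3 left room for a higher H2AK119ub at only 13 collagen starts, so the count of 0 is read against these 13, and of all genes with that room 30.9% were called higher. Col11a1 was at 0% for H2AK119ub and 100% for H3K27me3 in all 4 libraries of each mark. Col6a3 was at 6.26% ± 12.5 and 100%, Col4a4 at 6.26% ± 12.5 and 99.8% ± 0.425, Col4a3 at 6.26% ± 12.5 and 98.9% ± 2.22, Col6a5 at 6.26% ± 12.5 and 94.9% ± 6.64, and Col6a6 at 6.26% ± 12.5 and 93.1% ± 13.8 (SD, n = 4). The short-chain network gene Col8a1 was at 14.7% ± 18.4 and 100%, Col1a2 at 16.1% ± 19.6 and 79.7% ± 14.8, and Col24a1 at 38.04% ± 32.0 and 100%. Col6a2, Col22a1, Col19a1, Col15a1 and Col14a1 were the other 5. Over spans 7 were higher (29.0% of all genes) and 10 lower (9.92%), with an exact p of 0.0286 and an adjusted p of 0.0503 for each. The higher ones included Col11a2, at 81.1% ± 4.16 for H2AK119ub and 11.3% ± 2.49 for H3K27me3, and Col17a1, at 45.3% ± 5.64 and 0.548% ± 0.632, and the lower ones Col6a3, at 1.83% ± 0.413 and 64.8% ± 11.6. This comparison and that of H2AK119ub between cell types share the 4 HSPC H2AK119ub libraries.

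Tet2 KO and WT mES cells were compared next. For H2AK119ub 1 collagen start was higher in both KO libraries (7.43% of all genes) and 4 were lower (6.65%). Col20a1 was at 55.0% and 98.9% in WT and 30.0% and 54.4% in KO. Col11a1 was at 55.6% and 38.4% in WT and 31.6% and 32.5% in KO. Col6a5 was at 83.2% and 69.3% in WT and 67.1% and 59.9% in KO, and Col6a6 at 79.3% and 100% in WT and 79.3% and 75.7% in KO, where the nearest libraries almost met. Col19a1, the higher one, was at 67.4% and 66.1% in WT and 71.7% and 100% in KO. Over spans 1 gene was higher (3.34% of all genes), Col5a1, at 60.1% and 55.9% in WT and 69.9% in both KO libraries, and 0 were lower (3.66%). The lower count at starts (9.52%) lay near the share of all genes and the higher one (2.38%) below it.

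For H3K27me3 in mES cells 1 start was higher in KO (1.5% of all genes) and 2 lower (14.8%). The higher one was Col9a1, at 25.04% and 67.5% in WT and 96.9% and 93.5% in KO, and the lower ones were Col6a5, at 86.3% and 90.01% in WT and 72.7% and 70.6% in KO, and Col11a2, at 87.7% and 79.1% in WT and 78.8% and 67.8% in KO. Coverage of the median collagen start was 100% in WT and 95.6% in KO. Room for a higher call was left at 15 starts and for a lower call at 35. Of all genes with such room, 1.87% were called higher and 28.1% lower. KO replicate 2 had the shortest H3K27me3 list, 147.8 Mb against 186.6 to 229.6 Mb, and without it 5 starts were higher and 1 lower, beside 4.63% and 14.9% of all genes. Without KO replicate 1 the counts moved the other way, to 1 higher and 10 lower, beside 2.02% and 22.3% of all genes, so the direction of the collagen calls depended on the KO library. Over spans 2 were higher (1.59% of all genes) and 5 lower (7.67%). Col5a1 was at 7.01% ± 0.295 in WT and 21.7% ± 9.06 in KO, and Col8a2, Col16a1 and Col9a3 were lower in KO by 12.9, 12.7 and 10.9 points. At Col9a3 the nearest libraries almost met, at 85.6% in WT and 85.3% in KO. The largest span difference was at Col2a1, whose WT libraries stood at 79.3% and 83.0% and KO libraries at 47.8% and 40.4%, well apart. Col13a1 was at 41.6% and 49.9% in WT and 30.1% and 18.5% in KO, and Col1a2 at 12.6% and 24.5% in WT and 44.8% and 28.3% in KO.

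For H2AK119ub in HSPCs, collagen starts and genes at large were both called higher in Tet2 KO more often than lower. In KO 10 of 42 starts (23.8%) were higher (16.1% of all genes) and 0 lower (4.04%). Over all 42 the higher share was less than 1.5 times that of all genes, a comparison that leaves room aside. Room for a higher call was left at 34 collagen starts, and 18.8% of all genes with it were called higher. Room for a lower call was left at 26, and 5.64% of all genes with it were called lower. Col23a1 was at 26.3% and 29.7% in WT and 70.1% and 100% in KO. Col15a1 was at 61.3% and 0% in WT and 86.7% and 69.4% in KO, and Col6a2 at 32.6% and 18.9% in WT against 73.4% and 68.2% in KO. The WT and KO libraries did not overlap at these starts, and at 3 of the 10, Col20a1, Col1a2 and Col8a1, both WT libraries were at 0%. Col20a1 was at 14.3% and 64.8% in KO, Col1a2 at 39.5% and 25.04%, and Col8a1 at 38.2% and 20.6%. The remaining genes were Col5a3, at 64.0% ± 32.6 in WT and 100% in KO, Col19a1, at 31.8% ± 9.61 and 61.6% ± 1.34, Col27a1, at 73.0% ± 1.91 and 100%, and Col6a1, at 14.5% ± 10.0 and 37.9% ± 13.9 (SD, n = 2).

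The 10 genes come from fibrillar, beaded-filament, network, FACIT, transmembrane and multiplexin classes. WT replicate 2 was the shortest H2AK119ub list, 138.4 Mb against 166.0 to 174.3 Mb, and the median difference over members was 11.3 points with it and 0 without it. Without it 13 starts were higher, including the 10, and 1 was lower, beside 20.5% and 10.8% of all genes. Leaving out a library cannot undo a separation, and only the rule of 10 points could remove a start. That the 10 remained is therefore no support for them. In a narrower window of 500 bp on each side 5 starts were higher and 0 lower, beside 12.8% and 2.74% of all genes. Of the covered bases in these libraries, 0.316% and 0.237% lay on the X chromosome in WT and 1.49% and 1.52% in KO, and the part of this difference in the autosomal values was not tested. Over spans 4 genes were higher (5.28% of all genes), Col9a2, at 45.6% and 23.6% in WT and 54.7% and 62.6% in KO, Col9a3, Col6a1 and Col13a1, and 0 were lower (3.21%).

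**Figure D5:**
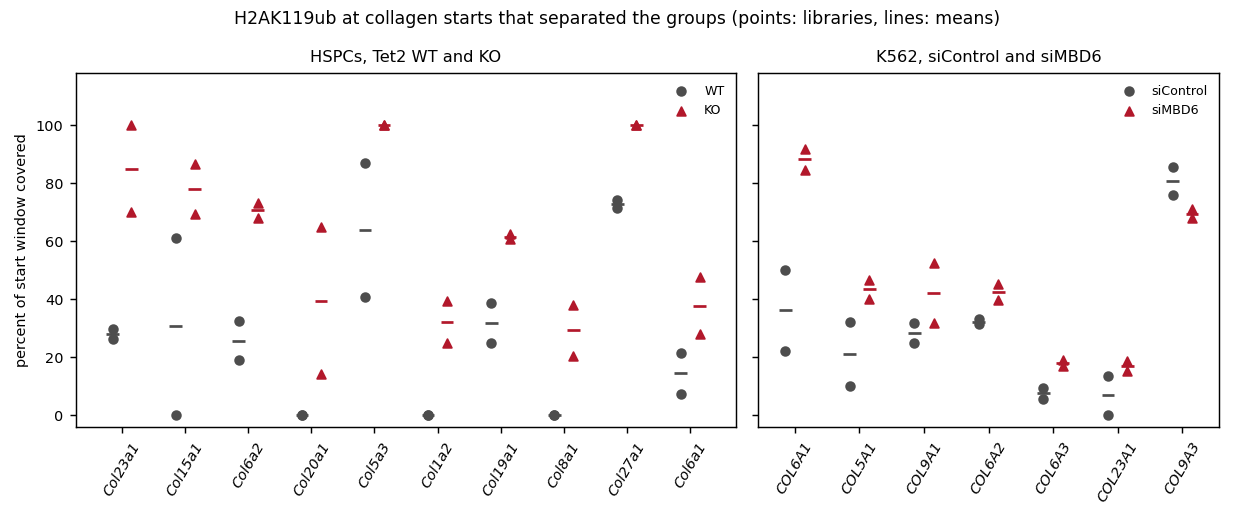
H2AK119ub coverage of the start window in percent for the collagen genes whose libraries separated by genotype in HSPCs (left, WT circles and KO triangles) or by siRNA in K562 (right, siControl circles and siMBD6 triangles); each point is 1 library and short lines are means of 2. On the left all 10 genes lie higher in KO, from Col23a1 (28.0% and 85.1%) to Col6a1 (14.5% and 37.9%), and on the right 6 lie higher and COL9A3 lower after siMBD6.

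For H3K27me3 in HSPCs 3 starts were higher in KO (5.68% of all genes) and 3 lower (7.3%). The higher ones were Col6a4, at 29.8% and 0% in WT and 74.4% and 29.9% in KO, Col22a1, at 25.04% and 38.1% in WT and 82.2% and 48.6% in KO, and Col6a1, at 41.5% and 23.9% in WT against 68.5% and 47.6% in KO. The lower ones were Col11a2, at 100% in both WT and 60.3% and 77.6% in KO, Col25a1, at 25.04% and 35.8% in WT and 0% in both KO, and Col1a2, at 100% and 81.6% in WT and 69.4% and 68.0% in KO. Over all 42 starts both counts lay near the shares of all genes. Room for a higher call was left at only 13 collagen starts, and of all genes with such room 6.99% were called higher. Against these 13 the higher count of 3 lay above that share. Room for a lower call was left at 36, and 11.1% of all genes with it were called lower. Over spans 8 genes were higher (2.85% of all genes) and 2 lower (5.28%), so the higher spans were the more frequent among collagen genes. In WT HSPCs H3K27me3 covered 12.2% of the median collagen span and 2.89% of the median span of all genes. Room was not counted over spans, and the part of this difference in the span counts was not tested.

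Among those 8 were 4 of the 6 type VI genes. Col6a1 stood at 17.4% and 38.1% in WT against 70.7% and 39.8% in KO, where the nearest libraries almost met. Col6a3 was at 53.1% and 58.9% in WT and 79.8% and 67.4% in KO, Col6a2 at 40.3% and 40.8% in WT and 54.0% and 52.4% in KO, and Col6a4 at 11.8% and 14.6% in WT and 26.8% and 21.4% in KO. Col5a1, at 42.6% ± 3.75 and 61.0% ± 4.54, Col9a3, at 75.1% ± 3.68 and 91.1% ± 1.86, Col24a1, at 39.4% ± 2.61 and 51.8% ± 2.89, and Col16a1, at 44.2% ± 8.94 and 55.5% ± 5.48, were the other 4 (SD, n = 2), and Col7a1, at 58.7% ± 7.63 and 39.8% ± 4.53, and Col9a2, at 73.5% ± 1.93 and 57.6% ± 4.11, were lower. Col6a1 and Col6a2 are neighbours on chromosome 10, and Col6a4 has Col6a5 and Col6a6 beside it on chromosome 9, so their values are not independent. In the same libraries the X chromosome made up 0.638% and 0.637% of the covered bases in WT and 12.1% and 11.7% in KO, a difference between the groups whose part in the autosomal values was not tested.

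In K562 depletion of MBD6 was the question. H2AK119ub marked 20 of 42 starts in siControl (47.6%, against 28.1% of all genes) and 22 in siMBD6 (52.4%, against 36.7%). After siMBD6 6 starts were higher (11.8% of all genes) and 1 lower (1.53%). COL6A1 was at 50.1% and 22.3% in siControl and 91.9% and 84.8% in siMBD6, well apart. COL5A1 was at 10.0% and 32.2% in siControl and 46.7% and 40.3% in siMBD6, and COL9A1 at 31.7% and 25.04% in siControl and 31.8% and 52.7% in siMBD6, where the nearest libraries almost met. COL6A2, COL6A3 and COL23A1 differed by 10.3, 10.3 and 10.2 points. COL9A3, the lower one, was at 76.1% and 85.8% in siControl and 68.1% and 71.1% in siMBD6. Room for a higher call was left at 40 starts and for a lower call at 20. Of all genes with such room, 12.2% were called higher and 3.93% lower.

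Over spans 8 K562 genes were higher after siMBD6 (14.3% of all genes) and 0 lower (0.225%). COL27A1, a fibrillar gene, stood at 56.5% and 53.8% in siControl against 73.4% and 73.5% in siMBD6, COL5A3 at 47.1% and 38.5% against 59.9% and 62.3%, and COL13A1 at 60.9% and 63.0% against 78.5% and 79.3%. COL17A1, COL26A1, COL23A1, COL15A1 and COL5A1 were the other 5, by 10.3 to 14.8 points. Both counts lay near the shares of all genes. The siMBD6 lists covered 175.6 and 188.0 Mb of the autosomes and the siControl lists 130.9 and 130.8 Mb. With lists cut to equal peak number, which does not even the covered length, the starts gave the same 6 and 1, beside 10.2% and 1.91% of all genes.

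The siControl spans showed both extremes. COL6A1 was at 96.3% ± 2.14, COL16A1 at 94.8% ± 0.0625, COL7A1 at 94.1% ± 4.63, COL2A1 at 88.6% ± 1.44, COL1A1 at 81.4% ± 5.19 and COL8A2 at 80.4% ± 4.97 (SD, n = 2 each), while COL25A1, COL3A1, COL4A3, COL5A2, COL6A5 and COL8A1 were among those at 0%. Of the 41 symbols shared by both species, 16 were marked by H2AK119ub in WT HSPCs and siControl K562, 7 in HSPCs and 4 in K562 alone, and 14 in neither. The same split over all shared gene symbols is not given here. H2AK119ub marked 63.1% of all genes in WT HSPCs and 28.1% in siControl K562. The split is therefore not read as a result about collagen genes. Marking differed between chains of one type: COL1A1 was at 100% and 79.4% of its start and COL1A2 at 0% in both siControl libraries, as in WT HSPCs. COL11A2 was at 0% of its start and span in all 4 K562 libraries, whereas its mouse counterpart was at 100% of its start in all 4 HSPC libraries. The cells differ in species, annotation and culture, so these values are set side by side without a test.

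The enzymes and receptors that make and bind collagen were taken as another list of 45 genes, with values given as group means. In WT mES cells 37 of 45 starts carried H2AK119ub (82.2%, against 65.6% of all genes) and 29 H3K27me3 (64.4%, against 45.7%). In WT HSPCs the counts were 37 (against 63.1%) and 36 (80.0%, against 56.0%), and in siControl K562 18 of 45 carried H2AK119ub (against 28.1%). All 12 hydroxylation genes, which modify proline and lysine in collagen chains, had H2AK119ub in both WT libraries of mES cells and of HSPCs, and 12 had H3K27me3 in HSPCs against 8 in mES cells. Between cell types, 5 of the 45 were higher and 3 lower in HSPCs for H2AK119ub (16.0% and 8.8% of all genes), and 10 and 4 for H3K27me3 (23.5% and 9.01%), so the H3K27me3 counts lay near the shares of all genes. P4hb, the beta subunit of prolyl 4-hydroxylase, had 0% H3K27me3 at its start in mES cells and 71.8% in HSPCs, and Serpinh1, the collagen chaperone HSP47, 41.7% and 100%.

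For loss of Tet2 in mES cells the list gave 3 higher and 0 lower for H2AK119ub (7.43% and 6.65% of all genes) and 3 and 7 for H3K27me3 (1.5% and 14.8%). In HSPCs it gave 10 and 1 for H2AK119ub (16.1% and 4.04%) and 5 and 3 for H3K27me3 (5.68% and 7.3%). In mES cells H3K27me3 at Serpinh1 was at a mean of 83.4% in WT and 0% in KO, and at Ddr2, a collagen receptor kinase, at 12.5% and 96.3%. In KO HSPCs the 10 included Lox, which cross-links collagen, at 33.1% in WT and 47.7% in KO, Tll1, a procollagen C-proteinase, at 12.5% and 69.8%, and Adamts3, which removes N-propeptides, at 47.2% and 83.6%. After siMBD6 7 were higher (11.8% of all genes) and 1 lower (1.53%) in K562, among them P4HA2, a catalytic subunit of prolyl 4-hydroxylase, at 56.7% and 95.8%, and SERPINH1, at 70.2% and 93.5%. These are counts by the rule used for collagen genes, with no test.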

How the data were processed

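CUT&Tag was carried out by the authors for H2AK119ub and H3K27me3 in mES cells and HSPCs and for H2AK119ub in K562 cells, and 1 peak list per library was deposited. Per the labels and methods, reads were trimmed, aligned to mm10 or hg38 and called into peaks in each library separately. The submitters' processing notes name Trimmomatic 0.39, Bowtie2 2.4.1 and HOMER 4.9, with no roles given, whereas the methods name MACS2 in broad mode for CUT&Tag peaks and a Drosophila spike-in, which peak positions do not carry. The deposited values are peak positions only (chromosome, start and end), with no score, signal or read count, so depth and counting error are unknown, and 30.4% to 41.4% of the peaks in a list are exactly 0.501 kb wide.

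From these, overlapping peaks were merged and the percent of covered bases was computed over the start window (1 kb on each side of the most 5′ annotated start) and over the gene span, for every autosomal protein-coding gene of GENCODE release 21 on mm10 or release 44 on hg38. Python 3.11.15, numpy 2.4.6, pandas 2.3.3, pyfaidx 0.9.0.4 and matplotlib 3.10.9 were used. Samples were grouped by cell, genotype or siRNA, and mark, with 2 libraries per group. A gene was called when the libraries of both sides did not overlap and their means differed by at least 10 points. Two-sided exact permutation tests over samples, with Benjamini-Hochberg adjustment over all genes, were run beside 9 comparisons, and the code was tested on simulated data. Cell type and mark comparisons pooled both genotypes. Named genes were the called members, up to 10 by difference in each direction, the 6 highest and 6 lowest by span in control libraries, and a few genes of types I to IV, XVII and XVIII. Members and lists were chosen with earlier results of these data known. Alternatives changed the window, the start, the peak width, joining and number, the size of difference, the pairing and the libraries included. Counts from peak lists depend on the caller's threshold.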

Additional observations from a re-analysis of the deposited data

Results flagged for a closer look

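For 3 genes the difference between Tet2 KO and WT ran in opposite directions in mES cells and HSPCs, with both libraries of each group on the same side in each. H2AK119ub over the Col20a1 start was lower in KO mES cells, by -34.7 points, and higher in KO HSPCs, by 39.6 points. H3K27me3 over the Col9a3 span differed by -10.9 points in mES cells and 16.0 points in HSPCs, and over the Col16a1 span by -12.7 and 11.3 points. For each gene the nearest libraries almost met in 1 cell type. In mES cells Col9a3 was at 85.6% and 90.0% in WT and 85.3% and 68.4% in KO. In HSPCs Col16a1 was at 37.9% and 50.5% in WT and 59.4% and 51.6% in KO. At the Col20a1 start in mES cells the nearest libraries were at 55.0% in WT and 54.4% in KO. The difference between the cell types was not tested for any of the 3 genes.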

How the results depend on the processing

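Counts of called or marked collagen starts were compared with those under each alternative. They changed by a factor of more than 1.5 in 31 cases and did not in 132. No median difference changed sign, but in most comparisons it was 0 in the main setting and had no sign to change. For Tet2 in HSPC H2AK119ub it was 11.3 points, and 0 without WT replicate 2. The numbers below are higher and lower calls together, from 5, 3, 10 and 6 for Tet2 in mES cells (H2AK119ub, H3K27me3) and HSPCs (same order), 7 for siMBD6, 14 and 5 for cell type, and 7 and 14 for mark. With 2 kb on each side they were 3 and 6 for mES cells, 10 for HSPC H3K27me3, 8 for H3K27me3 between cell types, and 12 and 25 between marks. With 500 bp they were 3 for mES H2AK119ub (6.22% of all genes higher and 5.67% lower) and 5 for HSPC H2AK119ub (12.8% and 2.74%). For H3K27me3 between cell types they were 3 (21.2% and 6.85%). A minimum difference of 25 points left 1 gene each for mES H2AK119ub, mES H3K27me3 and siMBD6. Over spans the counts were 1, 7, 4 and 10 for Tet2, 19 for H3K27me3 between cell types and 16 for marks in mES cells. Joined peaks gave 2 for mES H2AK119ub, and peaks of at least 1 kb gave 3 for H3K27me3 between cell types. When at least 50% of the window had to be covered, 13 rather than 23 starts were marked by H2AK119ub in WT HSPCs and 8 rather than 20 in siControl K562. The shares of all genes fell too, from 63.1% to 37.8% in WT HSPCs and from 28.1% to 9.36% in siControl K562. Shares of all genes are not given here for 2 kb, 25 points, joined or wider peaks, or the replicate block below. Those counts are therefore no result about collagen genes. The cause of these shifts was not tested.

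Leaving out 1 library at a time, which makes separation easier, gave 5 to 11 and 4 to 11 genes for Tet2 in mES cells, 13 to 17 and 6 to 9 in HSPCs, 8 to 12 for siMBD6, 13 to 17 and 5 to 7 between cell types, and 7 to 10 and 13 to 17 between marks. The shares of all genes called also changed with the library left out, so these ranges alone are no result about collagen genes. For mES H2AK119ub, 11 were called without KO replicate 1, beside 11.8% of all genes higher and 12.1% lower. Without WT replicate 2 it was 8, beside 13.4% and 11.6%. For mES H3K27me3, 11 were called without KO replicate 1, beside 2.02% of all genes higher and 22.3% lower. Without KO replicate 2 it was 6, beside 4.63% and 14.9%, and without WT replicate 1 it was 5, beside 1.70% and 21.9%. For HSPC H2AK119ub, 17 were called without WT replicate 1, beside 29.9% of all genes higher and 8.20% lower. Without KO replicate 2 it was 16, beside 22.7% and 8.12%. For siMBD6 12 were called without siControl replicate 1, beside 16.1% of all genes higher and 5.89% lower.

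Replicate numbers were not shown to pair the samples, with correlations of deviations from -0.134 to 0.0314 over the 5 comparisons. A replicate block gave 5, 4, 11 and 6 genes for Tet2, 8 for siMBD6, 15 and 7 between cell types, and 9 and 15 between marks, and a crossed pairing, chosen after seeing the data, gave 5 for mES H3K27me3. Depth was unknown, so a start without a peak may be unmarked or under the caller's threshold.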

Other observations

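Col4a5 and Col4a6, which lie head to head on the X chromosome and encode type IV chains of basement membranes, were outside the autosomal rule. H3K27me3 covered 0.153% and 0.157% of the Col4a6 span in WT HSPCs and 44.2% and 39.3% in Tet2 KO HSPCs. For Col4a5 it was 0% and 0.294% in WT and 14.9% and 13.0% in KO. At the starts, Col4a6 was at 32.9% and 31.7% in WT and 71.3% and 100% in KO, and Col4a5 at 0% and 31.4% in WT and 62.6% and 90.9% in KO. In the same lists the X chromosome held 0.638% and 0.637% of the covered bases in WT and 12.1% and 11.7% in KO. In mES cells its share of H3K27me3 was 1.04% to 1.23% in all 4 libraries. Per the methods, WT and Tet2 KO mice of both sexes were used, and the sex behind each library is not given in the labels used here. Genotype cannot be told apart from sex or any other difference between the donors of these libraries.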
